A study of Mus musculus with 6 samples.

Results

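The BCL2 family genes measured here were Bcl2, Bcl2l1, Mcl1, Bcl2a1a, Bcl2a1b, Bcl2a1d, Bax, Bak1, Bcl2l11 and Bid, 10 of the 46072 gene identifiers in the count and FPKM tables, chosen by gene symbol with 1 row each. They were measured by RNA-Seq in monocytes of the spleen from 3 libraries of a Con group and 3 of a Van group, all from female C57BL/6 mice aged 8 to 10 weeks. Con mice were gavaged with water and Van mice with 2 mg of vancomycin per day, given as gavages of 1 mg, for 6 days in both groups. A rest of 6 to 8 days with no antibiotic followed per the labels. The study's account of its sequenced groups, matched to these libraries by treatment alone, gives age, a rest at the upper end of that range and no stimulation ex vivo. The cells were isolated by magnetic negative selection, which leaves some other spleen cells in each library. The same account gives 3 mice per group, read here as 1 mouse per library, which it does not state. For its cultured monocytes the study combined spleens. P-values measure the spread between libraries. The estimated counts of a library, which are not numbers of read pairs, summed to between 43383919 and 61834407. All 10 genes passed the filter on low counts, with 16138 genes tested in all.

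BCL2 family proteins decide whether the outer mitochondrial membrane is opened during intrinsic apoptosis. The anti-apoptotic members, BCL2, BCL-XL (gene Bcl2l1), MCL1 and A1 (genes Bcl2a1a, Bcl2a1b and Bcl2a1d), hold the effectors BAX and BAK (gene Bak1) inactive. The BH3-only proteins, among them BIM (gene Bcl2l11) and BID, bind the anti-apoptotic members or activate the effectors, and release of cytochrome c then starts the caspase cascade. Monocytes are short-lived cells whose survival depends on growth factor signals, and MCL1 and A1 are known as survival factors of myeloid cells.

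The A1 genes are near-identical copies on chromosome 9 of GRCm38, at 88956900-88962419 (Bcl2a1a), 89199209-89207827 (Bcl2a1b) and 88723285-88731914 (Bcl2a1d). Their coding sequences are shown because they limit how reads can be divided between the copies. The first 120 coding bases in GENCODE M21 are given below from the start codon, written 5′ to 3′ on the strand of each gene, with capitals at the 7 positions at which the copies differ.
Bcl2a1a: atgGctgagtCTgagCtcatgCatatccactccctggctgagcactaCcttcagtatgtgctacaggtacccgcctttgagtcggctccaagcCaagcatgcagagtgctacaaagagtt
Bcl2a1b: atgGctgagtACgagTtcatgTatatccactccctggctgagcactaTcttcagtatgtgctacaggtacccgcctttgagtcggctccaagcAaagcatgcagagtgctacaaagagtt
Bcl2a1d: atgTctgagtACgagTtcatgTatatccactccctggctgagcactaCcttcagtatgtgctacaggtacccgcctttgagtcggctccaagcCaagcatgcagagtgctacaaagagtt
Over the whole 516 coding bases the copies differed at 12 positions, and the longest stretch without a difference was 217 bases. With positions counted from 1 at the start codon and the base of Bcl2a1b given first, A94C separated Bcl2a1b from both other copies and G4T separated Bcl2a1d from Bcl2a1b. Identity was 97.87% between Bcl2a1a and Bcl2a1b, 98.64% between Bcl2a1a and Bcl2a1d and 98.84% between Bcl2a1b and Bcl2a1d. Of the 100-base windows of the mature transcripts, 43.5% in Bcl2a1a, 56.8% in Bcl2a1b and 54.7% in Bcl2a1d also occurred in another gene. Among the remaining members, Bax shared 5.33% of its windows, with the gene model Gm45808, and each of the others shared 0%.

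Compared to Con, the Van group had less Bcl2 message, while no other member passed the test. Bcl2 lies on chromosome 1 from 106538178 to 106714274 of GRCm38, on the minus strand. In FPKM, which is scaled to transcript length and library size, Bcl2 measured 14.8, 13.03 and 16.9 in the Con libraries (replicates 1, 2 and 3) and 10.1, 6.83 and 7.50 in the Van libraries (in the same order of numbers). The lowest Con library thus lay above the highest Van library, and Van replicate 1 stood above the other Van libraries. In CPM, the counts scaled to library size with TMM normalization, Bcl2 was 128, 111 and 142 in Con and 86.1, 56.6 and 64.2 in Van. This gave a log2 fold change of -0.88 with a 95% interval of -1.23 to -0.53 (standard error 0.15), a value by which Bcl2 fell by 45.7%. The quasi-likelihood test of edgeR gave it an adjusted p of 0.0313 (Benjamini-Hochberg). Only 2.78% of the genes tested had a more negative log2 fold change, and Bcl2 was at place 161 of all genes when ordered by p-value. Bcl2 was known to fall in these libraries when it was chosen, so that its test is a description.
The call was lost when any library other than Van replicate 1 was left out. Without Van replicate 1 the adjusted p was 0.0113, and it was 0.0776, 0.064 and 0.138 without Con replicates 1, 2 and 3 and 0.121 and 0.104 without Van replicate 2 or 3 (edgeR). The log2 fold change stayed between -1.07 and -0.76 in these 6 fits.

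**Figure D1:**
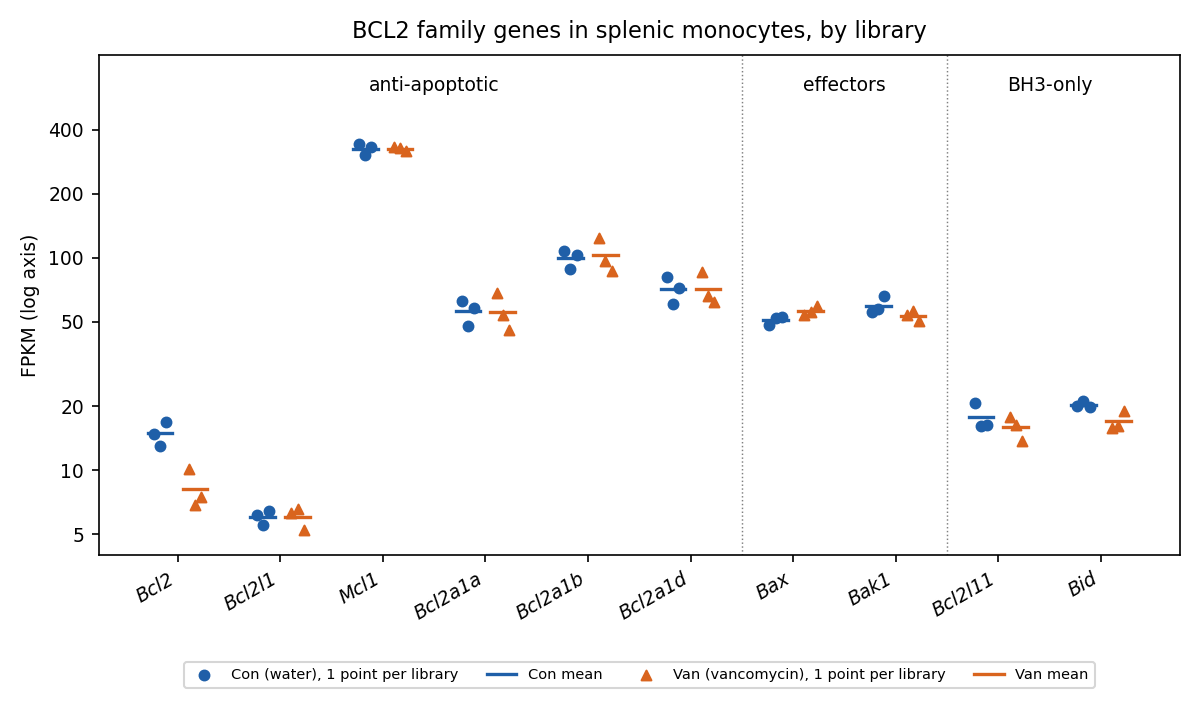
FPKM (log axis) of the 10 members in each library, with circles for Con, triangles for Van and a horizontal line at each group mean, ordered by role. Bcl2 lies between 13.03 and 16.9 in Con and between 6.83 and 10.1 in Van, whereas Mcl1 lies between 304 and 342 in all 6 libraries.

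Of the 10 members, 1 had an adjusted p of at most 0.05, against 2.00% of all genes tested, and that gene was lower in Van, as were 0.917% of all genes tested. An unadjusted p under 0.05 was found for Bcl2, Bid and Bak1 (3 of 10, against 16.5% of all genes tested). The CPM values of the groups did not overlap for Bcl2, Bax, Bak1 and Bid (4 of 10, against 22.5%). With DESeq2, Bcl2 and Bid had an adjusted p of at most 0.05 (2 of 10, against 7.36% of the 13063 genes for which it gave one). These counts include Bcl2, whose fall was known. The median log2 fold change was -0.02 over the 10 members and -0.0014 over all genes tested.

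The most abundant member was Mcl1 (chromosome 3, 95658788-95663176, plus strand), which encodes a short-lived anti-apoptotic protein. Its level was 342, 304 and 334 FPKM in the Con replicates and 332, 328 and 317 FPKM in the Van replicates. All Van values lay inside the range of Con, and the log2 fold change of -0.02 had a 95% interval of -0.15 to 0.12 (standard error 0.06, edgeR adjusted p = 0.937). A fall of the size seen for Bcl2 was thus outside the interval of Mcl1.
Bcl2l1 (chromosome 2, 152780668-152831728, minus strand), whose product BCL-XL protects many cell types from apoptosis, was the least abundant member. It was measured at 6.17, 5.56 and 6.45 FPKM in Con and 6.31, 6.60 and 5.24 FPKM in Van. Its groups overlapped as well, with a log2 fold change of -0.02 (95% interval -0.23 to 0.20, edgeR adjusted p = 0.958).

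The A1 genes, which NF-κB signaling induces in leukocytes, together reached 251, 197 and 233 FPKM in Con and 278, 217 and 194 FPKM in Van. Bcl2a1b had the highest level of the copies, at 107, 88.4 and 103 FPKM in Con and 124, 96.8 and 86.8 FPKM in Van. Bcl2a1d was at 81.1, 60.7 and 72.0 FPKM in Con and 85.6, 66.0 and 62.0 FPKM in Van. In each of these genes the highest library was Van replicate 1, and the remaining Van libraries lay within or below the range of Con. Bcl2a1a followed the same order, with 62.7, 47.9 and 58.1 FPKM in Con and 68.1, 53.9 and 45.5 FPKM in Van. The log2 fold changes were -0.02 for Bcl2a1a, 0.03 for Bcl2a1b and -0.01 for Bcl2a1d, each with a standard error between 0.13 and 0.15 and an edgeR adjusted p between 0.943 and 0.983.
The share of the summed A1 message assigned to each copy varied little between libraries. Bcl2a1a took between 23.4% and 24.9% of it, Bcl2a1b between 42.8% and 44.9% and Bcl2a1d between 30.5% and 32.3%. Since reads could be split among the copies, their counts were also added and tested as 1 gene, which gave a log2 fold change of 0.0057 (standard error 0.14, 95% interval -0.31 to 0.32, edgeR adjusted p = 0.992). Its sign and those of the single copies changed when single libraries were left out. Exons of Bcl2a1b also share 401 bases with the overlapping gene model Gm29094 on the same strand, which was at 1.11 to 2.69 FPKM in Con and 3.28 to 3.93 FPKM in Van, without overlap of the groups (log2 fold change 0.76, edgeR adjusted p = 0.284).

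**Figure D2:**
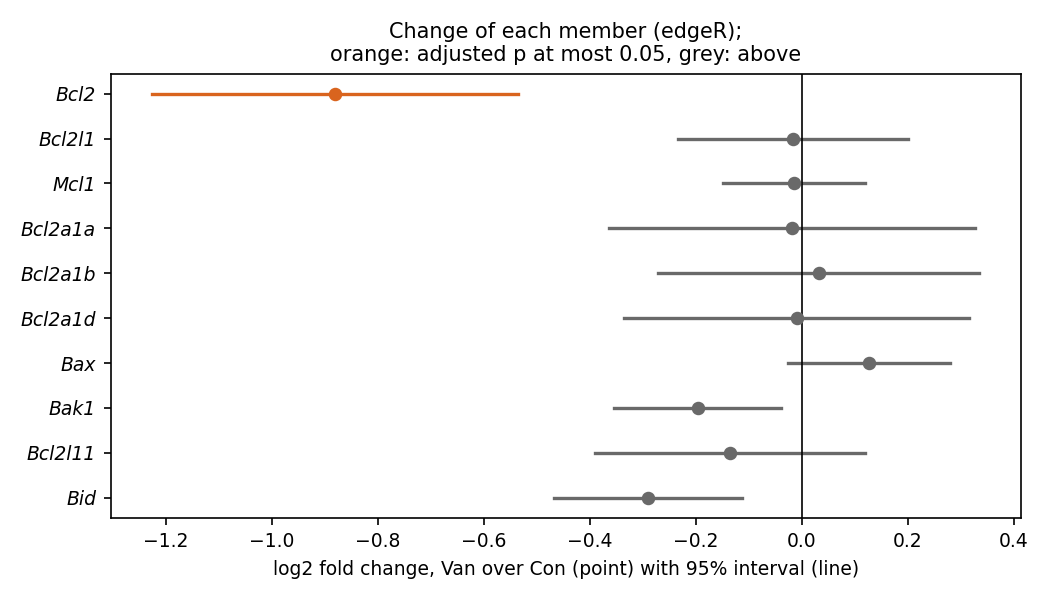
Log2 fold change of each member, Van over Con, with its 95% interval from the edgeR fit; orange marks an adjusted p of at most 0.05 and grey a higher one. The interval of Bcl2, -1.23 to -0.53, lies below those of all 9 other members.

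The effectors, which form the pores of the outer mitochondrial membrane, had changes of opposite sign. Bax (chromosome 7, 45461697-45466898, minus strand) was at 48.4, 52.0 and 52.7 FPKM in Con and 53.5, 55.3 and 59.4 FPKM in Van, so that every Van library lay above every Con library. The difference was small, with a log2 fold change of 0.13 (standard error 0.07, 95% interval -0.03 to 0.28), and did not pass the test (edgeR adjusted p = 0.394). It was 0.077 without Van replicate 3, and at most 0.15 with any library left out. Bak1 (chromosome 17, 27019810-27029009, minus strand) was at 55.3, 57.1 and 66.2 FPKM in Con and 53.8, 55.9 and 50.5 FPKM in Van. In FPKM its groups overlapped, since Con replicate 1 lay below Van replicate 2, and in CPM they did not. The log2 fold change of Bak1 was -0.20 (standard error 0.07, 95% interval -0.35 to -0.04, edgeR adjusted p = 0.206), and it was -0.12 without Con replicate 3 and at lowest -0.24 without Con replicate 1. Exons of Bak1 share up to 437 bases with Ggnbp1 on the opposite strand, which was listed at 1.90 to 3.09 FPKM.

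Both BH3-only members had lower means in Van, and neither passed the edgeR test. Bid (chromosome 6, 120891930-120916853, minus strand), whose product is cut by caspase-8 and links death receptors to mitochondria, was at 20.1, 21.2 and 19.8 FPKM in Con and 15.9, 16.2 and 18.9 FPKM in Van. The groups did not overlap, and Van replicate 3 lay closest to Con. The log2 fold change of Bid was -0.29 (standard error 0.08, 95% interval -0.47 to -0.11, adjusted p = 0.106 from edgeR). With DESeq2 the same log2 fold change had an adjusted p of 0.0238, and no other alternative gave one at or below 0.05. Exons of Bid overlap 628 bases of Bcl2l13 on the opposite strand, which was at 6.64 to 7.04 FPKM in Con and 6.29 to 6.69 FPKM in Van.
Bcl2l11 (chromosome 2, 128126038-128162547, plus strand), whose product BIM is the BH3-only protein most associated with withdrawal of growth factors, was at 20.8, 16.1 and 16.4 FPKM in Con and 17.8, 16.3 and 13.8 FPKM in Van. The groups overlapped, and the log2 fold change of -0.14 (standard error 0.11, 95% interval -0.39 to 0.12, edgeR adjusted p = 0.619) was close to its standard error. It was -0.036 without Van replicate 3, -0.038 without Con replicate 1 and -0.21 without Van replicate 1.

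Set in order of mean FPKM, Bcl2 was at place 9 of 10 in both groups, above Bcl2l1 only. In Con the order was Mcl1, Bcl2a1b, Bcl2a1d, Bak1, Bcl2a1a, Bax, Bid, Bcl2l11, Bcl2 and Bcl2l1. In this group the libraries of Bcl2a1d, Bak1, Bcl2a1a and Bax formed a chain in which each neighbour overlapped the next, as did those of Bid, Bcl2l11 and Bcl2. In Van, Bax stood above Bcl2a1a and Bak1, and the libraries of these 3 genes overlapped from neighbour to neighbour, as did those of Bid and Bcl2l11. The highest Van value of Bcl2, 10.1 FPKM, was below the lowest of Bcl2l11, 13.8 FPKM, whereas in Con Bcl2 and Bcl2l11 overlapped. In single libraries Bcl2 was at place 8 in Con replicate 3, where it exceeded Bcl2l11, and at place 9 in the other 5.

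To compare Bcl2 with the other members free of library scaling, the log2 ratio of Bcl2 to each of the 9 was taken within each library. The ratio to Mcl1 was -4.53, -4.54 and -4.30 in the Con replicates and -5.04, -5.58 and -5.40 in the Van replicates, which corresponds to a Bcl2 level of 4.29% to 5.07% of that of Mcl1 in Con and 2.09% to 3.04% in Van. The mean difference between the groups in this ratio was -0.88. Against Bax, which was higher in Van, the difference was largest, at -1.02, and against Bid it was smallest, at -0.62. The ratio of Bcl2 to Bcl2l11 in FPKM was 0.710, 0.808 and 1.03 in Con and 0.567, 0.420 and 0.545 in Van. The groups did not overlap in 8 of the 9 ratios, and in the ratio to Bid they overlapped, since Van replicate 1 lay at -0.65 and Con replicate 2 at -0.70. All 9 ratios hold the same Bcl2 values, whose fall was known, so that they describe that fall on other scales and are given with no test.

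**Figure D3:**
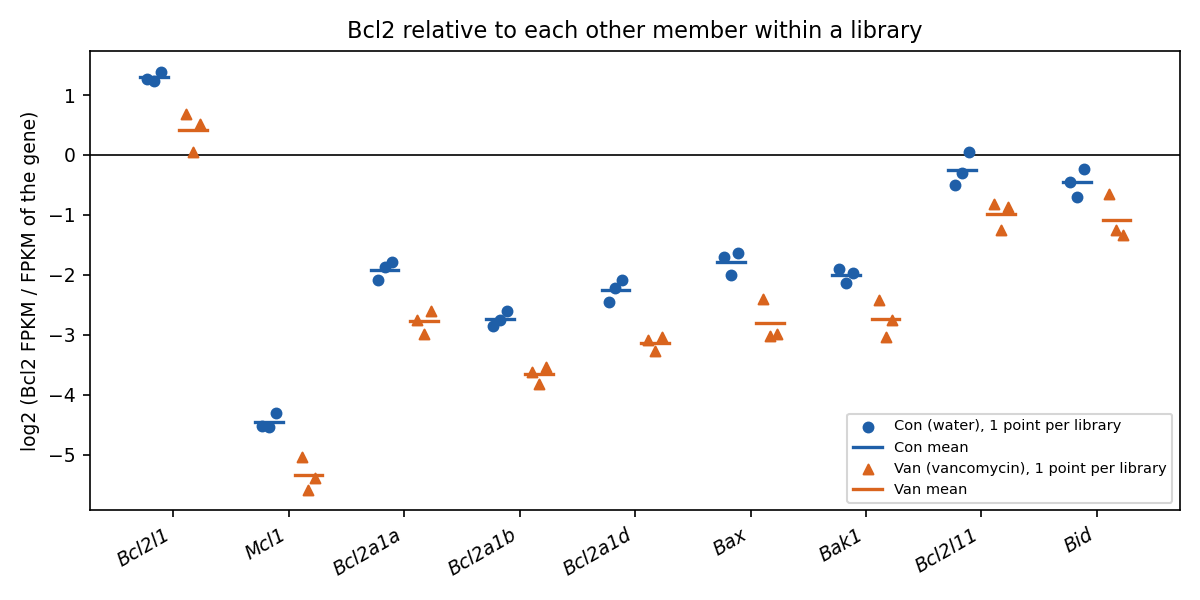
Log2 ratio of Bcl2 FPKM to the FPKM of each other member within a library, with circles for Con, triangles for Van and lines at the group means; 0 marks equal levels. Van lies below Con without overlap for each gene except Bid.

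Of the summed FPKM of the 6 anti-apoptotic members, Bcl2 made up 2.41%, 2.51% and 2.86% in Con and 1.61%, 1.23% and 1.43% in Van. Mcl1 made up between 53.0% and 60.5% and the A1 genes between 37.1% and 44.4% over all libraries, and both shares overlapped between the groups. The sum itself was 575 ± 49.1 FPKM (SD, n = 3) in Con and 569 ± 52.0 FPKM in Van. Divided by the sum of Bax, Bak1, Bcl2l11 and Bid, it gave 4.25, 3.55 and 3.81 in Con and 4.44, 3.88 and 3.67 in Van, with overlapping groups. Bcl2l11 and Bid together were at 40.9, 37.3 and 36.2 FPKM in Con and 33.7, 32.5 and 32.7 FPKM in Van. Sums of FPKM describe message and say nothing of protein, which is unstable for MCL1 and was not measured.

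**Figure D4:**
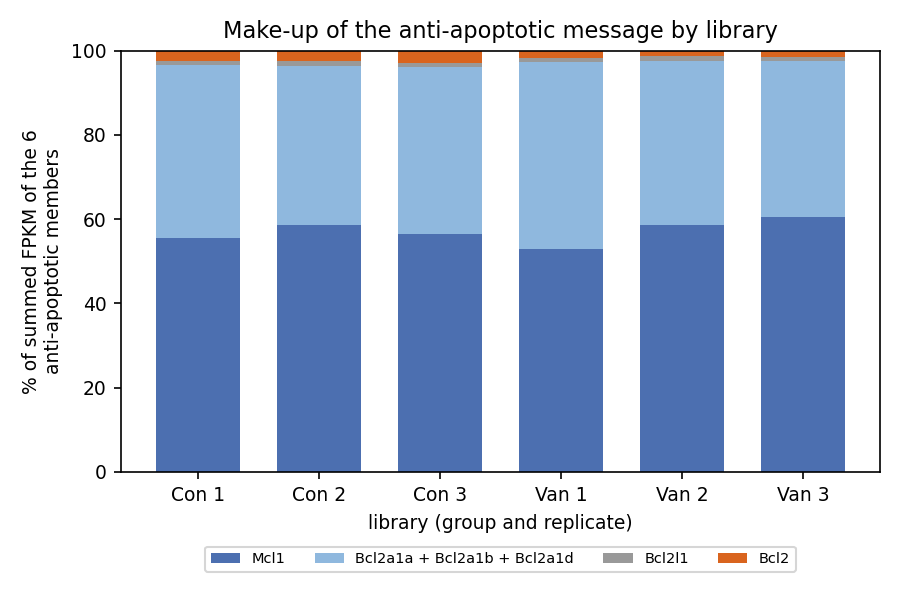
Stacked bars with the percentage of the summed FPKM of the 6 anti-apoptotic members that each gene takes, by library. Mcl1 and the A1 genes fill most of every bar, and Bcl2 takes 2.41% to 2.86% in Con and 1.23% to 1.61% in Van.

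In bulk libraries such as these, fewer cells of a type and less RNA per cell cannot be told apart, and Bcl2 is also known to be high in lymphocytes. The negative selection was directed against T, B and NK cells and other lineages, through CD3e, CD45R, NK1.1 and further surface markers. The values of cell type markers are therefore given beside it. The 10 monocyte markers were all tested and summed to 18476 to 19677 CPM in Con and 16614 to 18974 CPM in Van, with 2 of them, Ccr2 and Fcgr1, called lower in Van (edgeR). Ccr2, the chemokine receptor of classical monocytes, had a log2 fold change of -0.83 (edgeR adjusted p = 0.0283). It is also 1 of the 10 classical monocyte markers, of which Vcan, which encodes the matrix proteoglycan versican, was called higher at 1.54 (edgeR adjusted p = 0.0309) and none of the remaining 8 was called. The classical list had 6 log2 fold changes below 0 and 4 above, and summed to 4833 to 6326 CPM in Con and 3595 to 7056 CPM in Van, and the 13 nonclassical markers to 11564 to 13364 and 11878 to 15694 CPM. By replicate (1, 2 and 3), the classical sum was 5677, 6326 and 4833 CPM in Con and 3595, 4788 and 7056 CPM in Van. In the same order, the nonclassical sum was 12691, 11564 and 13364 CPM in Con and 15694, 12706 and 11878 CPM in Van. Van replicate 1, with the lowest classical and highest nonclassical sum, had the most Bcl2 in Van but less than every Con library. A relation of these sums to Bcl2 was not tested.
Of the 14 marker lists, the sums of 11 overlapped between the groups and those of 3 did not. These 3 were the B cell list, lower in Van, and the erythroid and macrophage lists, higher in Van. The 8 B cell markers summed to 18.9 to 22.2 CPM in Con and 15.2 to 18.2 CPM in Van, and all 7 tested had a log2 fold change below 0, with 0 called by edgeR. The 10 T cell markers summed to 45.8 to 60.5 and 34.5 to 47.6 CPM. Most of this was Cd4, at 30.7 to 39.7 CPM in Con and 23.2 to 35.1 CPM in Van. Of the 9 tested, 8 had a log2 fold change below 0 (median -0.48) and Cd3e was at 0.12, with 0 called by edgeR. Of the 8 dendritic cell markers, with overlapping sums of 480 to 523 and 429 to 494 CPM, 7 had a log2 fold change below 0, and Clec9a, a receptor of conventional dendritic cells that take up dead cells, was called lower at -1.12 (edgeR adjusted p = 0.0131). DESeq2 called 0 of the B cell markers, 1 of the T cell markers (Thy1, at -1.12 with a DESeq2 adjusted p of 0.00728), 3 of the dendritic cell markers (Clec9a, Xcr1 at -0.85 and Batf3 at -0.40) and 1 of the plasmacytoid dendritic cell markers (Siglech, at -0.88 with a DESeq2 adjusted p of 0.0355), all lower in Van and without overlap of the groups in CPM. In the other lists, DESeq2 called 7 erythroid and 2 macrophage markers (Vcam1 and C1qb) higher, 1 monocyte marker higher (Cd14) and 3 lower (Ccr2, Fcgr1 and Itgam), 1 classical marker in each direction (Vcan and Ccr2), and 1 nonclassical (Eno3) and 1 plasma cell marker (Sdc1) lower. It called 0 of the NK cell, neutrophil, eosinophil and progenitor markers. Of the 8 erythroid markers 5 were called higher in Van by edgeR, with a sum of 81.2 to 169 CPM in Con and 282 to 622 CPM in Van. All 8 had a log2 fold change above 0 (median 1.78). The 8 macrophage markers summed to 2570 to 3006 and 3135 to 3840 CPM, and all 8 had a log2 fold change above 0 (median 0.25), with 0 called by edgeR. The neutrophil marker Ly6g was at 0 in all libraries. The part of these cells in the Bcl2 result was not tested. Exons of Bcl2 share 558 of 9157 bases with D630008O14Rik on the opposite strand, which was at 0.205, 0.282 and 0.451 FPKM in Con and 0.106, 0.0516 and 0.0823 FPKM in Van.

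Beyond the 10 members, 5 lists of related genes held 87 genes, of which 83 were tested. None was called by edgeR (against 2.00% of all genes tested), 17 had an unadjusted p under 0.05 (against 16.5%), and in 28 the CPM of the groups did not overlap (against 22.5%). DESeq2 called 5 of them, against 7.36% of all genes it tested. Limma on log2(FPKM + 1) called 0 of them and 24 genes in all, and on log2(FPKM + 0.1) it called 0 genes in all.
In the list of other BCL2 family genes, 16 of 19 were tested, with a median log2 fold change of 0.02. Bcl2l10 and Hrk were listed at 0 in all libraries. Pmaip1, which encodes the BH3-only protein NOXA, an antagonist of MCL1, was the most abundant of them, at 79.6, 74.1 and 88.4 FPKM in Con and 117, 104 and 91.4 FPKM in Van. Its groups did not overlap, with a change of 0.36 on the log2 scale (SE 0.10) and an adjusted p of 0.104 with edgeR and 0.0087 with DESeq2. Bnip2, the next in abundance, had a log2 fold change of 0.05 (standard error 0.06). Among the other BH3-only genes, Bbc3, which encodes PUMA, was at 21.1, 16.5 and 25.4 FPKM in Con and 27.1, 26.0 and 22.5 FPKM in Van, and Bmf was between 18.2 and 19.9 FPKM in all libraries. Bcl2l2, a further anti-apoptotic gene, was at 4.20, 4.05 and 3.86 FPKM in Con and 3.65, 4.57 and 3.20 FPKM in Van.

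Downstream of mitochondria, all 20 genes of the caspase list were tested, with a median log2 fold change of 0.0043. Apaf1, which forms the apoptosome with cytochrome c, was at 21.9, 21.8 and 20.8 FPKM in Con and 18.7, 18.9 and 19.7 FPKM in Van. The groups did not overlap, with a change of -0.18 on the log2 scale (SE 0.06) and an adjusted p of 0.151 with edgeR and 0.0453 with DESeq2. Birc3 and Vdac2, the most abundant genes of the list, had log2 fold changes of -0.03 and -0.12, neither called. In the death receptor list 11 of 12 genes were tested, with a median of 0.05, and Tnfrsf1b and Tnfrsf1a, the receptors of TNF and the most abundant of the list, had log2 fold changes of 0.06 and 0.09 (standard errors 0.07 and 0.09).

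Of the genes that control transcription or turnover of the members, all 22 were tested, with a median log2 fold change of -0.05. Nfkb1 and Stat3, the most abundant, were at -0.08 and 0.08. Foxo4 was at 9.80, 9.78 and 10.1 FPKM in Con and 11.2, 11.9 and 11.8 FPKM in Van (log2 fold change 0.23, adjusted p = 0.084 from edgeR and 0.0264 from DESeq2). Gm14005, the long noncoding RNA known as Morrbid that represses Bcl2l11 in short-lived myeloid cells, was at 14.1, 14.8 and 16.8 FPKM in Con and 10.3, 13.5 and 13.4 FPKM in Van, without overlap (log2 fold change -0.31, standard error 0.14, edgeR adjusted p = 0.327). Dleu2, the host transcript of microRNAs that target Bcl2, was at 28.8 to 33.3 FPKM in Con and 35.3 to 39.7 FPKM in Van (log2 fold change 0.17, standard error 0.07, edgeR adjusted p = 0.286). Rel, an NF-κB subunit that induces A1 and Bcl2l1 in lymphocytes, had a log2 fold change of -0.42 (standard error 0.20, edgeR adjusted p = 0.334), which was -0.71 with an adjusted p of 0.0435 without Van replicate 1.

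Among the receptors for survival cytokines, all 14 genes were tested, with a median log2 fold change of 0.03. Csf1r and Csf2ra, the receptors for M-CSF and GM-CSF and the most abundant of the list, had log2 fold changes of 0.08 and 0.03 (standard errors 0.07 each). Csf3r, the receptor of G-CSF, was at 88.0, 88.0 and 86.5 FPKM in Con and 100.0, 110.0 and 100.7 FPKM in Van (log2 fold change 0.22, standard error 0.05, adjusted p = 0.0781 from edgeR and 0.00373 from DESeq2). Il7r, the receptor chain through which IL-7 raises Bcl2 in lymphocytes, was at 2.49, 2.30 and 2.60 FPKM in Con and 1.92, 1.90 and 1.33 FPKM in Van. Its groups did not overlap, with a change of -0.53 on the log2 scale (SE 0.15) and an adjusted p of 0.126 with edgeR and 0.0465 with DESeq2. Il10ra had a log2 fold change of -0.21 (edgeR adjusted p = 0.232), and -0.32 with an adjusted p of 0.0477 without Van replicate 1.

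**Figure D5:**
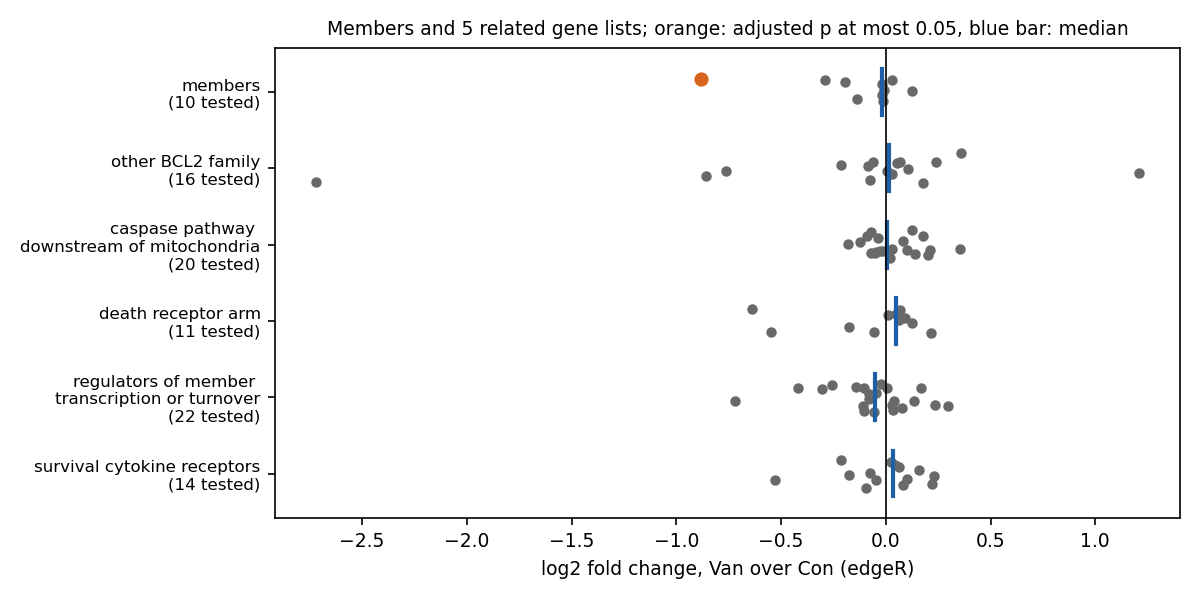
Log2 fold change, Van over Con, of each tested gene among the 10 members and the 5 related lists, with blue bars at the medians and orange for genes that edgeR called. Bcl2 is the only orange point, and the medians of the lists lie between -0.05 and 0.05. The points beyond 1 on either side, Bok and Bik, had at most 15 estimated counts in a library.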

How the data were processed

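RNA-Seq libraries of splenic monocytes (3 Con, 3 Van) were read from 2 deposited tables. Alignment by the authors was to the mouse build GRCm38 (HISAT2 2.2.1), and alignment files were handled with SAMtools 1.9. The deposited FPKM values were made by the authors with StringTie 2.1.3 and Ballgown. The deposited estimated counts were converted from them by the authors with tximport 1.26.1 and are not scaled to library size. They appear to rest on a read length of 75 bases, shorter than the paired reads the study states, and so exceed the number of read pairs. The annotation release, strand setting and treatment of multiply aligned reads are not given in the sources used here.

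After rounding the expected counts to integers, genes were tested in R 4.3.3 with edgeR 4.0.16 (TMM, expression filter at a minimum count of 10, quasi-likelihood test, with no covariate). Benjamini-Hochberg adjustment covered all genes tested, and the threshold for a call was 0.05. The standard error is the log2 fold change divided by the root of the F statistic. Ratios to Bcl2 are given with no test, since an exact permutation test of 3 libraries against 3 cannot pass the threshold and the fall of Bcl2 was known. Members and lists were chosen with earlier results of these data known. Named in the text are the members, genes that overlap their exons, called genes of the lists and the 2 most abundant genes of each list. Other list genes, among them Bbc3, Bmf, Bcl2l2, Apaf1, Foxo4, Gm14005, Dleu2, Rel, Csf3r, Il7r, Il10ra, Bok and Bik, were picked once their values had been seen. The same holds for the marker genes Cd4 and Cd3e and those called by DESeq2 alone.

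Alternative settings comprised DESeq2 1.42.0, scaling by RLE size factors or by library size alone, omission of the filter or a stricter filter of 10 counts in each library, a block for the replicate number, limma 3.58.1 after quantile normalization of log2(FPKM + 1) or of log2(FPKM + 0.1), 1 identifier per symbol, a count scale that stands for read pairs (assuming a read length of 75 bases in the conversion), and each library left out. For the ratios, CPM and FPKM + 1 were tried. Coordinates and transcripts are from GENCODE M21 and coding sequences were aligned with MAFFT 7.526.

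The chi-square per gene between libraries of a group was 7.67 to 16.0, so that none was a copy of another.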

Additional observations from a re-analysis of the deposited data

How the results depend on the processing

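Bcl2 was lower in Van under all 16 alternatives and passed the threshold of 0.05 in 9 of them. With limma its log2 fold change was -0.82 on log2(FPKM + 1) and -0.89 on log2(FPKM + 0.1), with adjusted p-values of 0.149 and 0.261, and with a library left out it was between -1.07 and -0.76. Bid, at -0.29, passed the threshold with DESeq2 alone. The number of genes called was 962 with DESeq2, 110 with the replicate block, 24 and 0 with limma on log2(FPKM + 1) and log2(FPKM + 0.1), and 21 to 136 with a library left out, against 322. In the related lists, DESeq2 called 1 gene each of the other BCL2 family, the caspase list and the regulators and 2 of the receptors, and with a library left out between 0 and 1 of the regulators and of the receptors were called. With a library left out, the signs of members near 0 changed. The log2 fold change was between -0.061 and 0.061 for Bcl2l1, -0.059 and 0.024 for Mcl1, -0.20 and 0.11 for Bcl2a1a, -0.14 and 0.13 for Bcl2a1b, -0.17 and 0.10 for Bcl2a1d and -0.16 and 0.11 for the summed A1 genes, which were at -0.0043 with the replicate block. The 9 ratios of Bcl2 kept their direction under each of their 8 alternatives. The causes of these changes were not tested, and the fits with a library left out also had fewer samples.

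With the replicate number as a block, Bcl2 was at -0.90 with an adjusted p of 0.0383 (edgeR), and no member's call changed. Deviations from the group mean correlated at 0.07, -0.03 and -0.15 between same-numbered libraries (replicates 1, 2 and 3). With 3 libraries per group, these values cannot show whether same-numbered libraries shared a batch. A comparison of 3 libraries with 3 by permutation cannot give a two-sided p below 0.10.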
